A study of Mus musculus with 45 samples.

Results

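The 10 genes Per1, Per2, Per3, Cry1, Cry2, Clock, Nr1d1, Nr1d2, Bhlhe40 and Nfil3, which encode parts of the mammalian circadian clock, were followed in NIH-3T3 cells, a mouse fibroblast line, on 45 Affymetrix arrays. A probe set was taken where the platform annotation gave exactly 1 symbol and that symbol was one of the 10, which left 20 of 31390 probe sets. Each gene is described by its probe set with the highest mean over all 45 arrays, and the others are given after the comparisons. Per3 had 5 probe sets, Clock 4, Per2 3, Nr1d2 2 and the other genes 1 each.

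All cells were between passage 5 and 15 after thawing, grew in DMEM with 5% NCS and P/S, and had gone from 40% to about 80% density in the 24 h before the start. Total RNA (tc) was taken before actinomycin D, which blocks transcription, and after 1 h and 2 h of it at 5 µg/ml, with 3 arrays each. In the other experiments fresh medium with 4-thiouridine (4sU) let newly transcribed RNA (nt) be separated by its label. Labelling ran for 15 min at 500 µM (nt, 3 arrays), 30 min at 500 µM (nt and tc, 9 arrays each) and 60 min at 200 µM (nt, tc and unlabelled pre-existing RNA, p, 3 arrays each). A second 60 min experiment at 200 µM, whose titles begin with 2F, holds nt and tc with 3 arrays each. The labels explain neither 2F nor mock, a word in the 15 min and 60 min titles. All groups come from 1 cell line, and no label says whether replicates are separate cultures, so p-values measure only how far arrays differ, and that may be technical. Between the 60 min experiments and the shorter labels, labelling time, 4sU dose and experiment change together and cannot be told apart. The 15 min and 30 min labels share the dose, so there only labelling time and experiment change together. The 2 experiments of 60 min share both time and dose.

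The clock is a feedback loop of transcription. CLOCK pairs with BMAL1 (Arntl) on E-box elements and switches on the Per, Cry and Nr1d genes, whose PER and CRY proteins return to the nucleus and block CLOCK and BMAL1. The REV-ERB receptors encoded by Nr1d1 and Nr1d2 repress genes with ROR elements, among them Arntl, while BHLHE40 competes at E-boxes and NFIL3 represses genes with D-boxes. In cultured fibroblasts, fresh serum is known to set these loops in step, with Per1 and Per2 among the first genes to respond.

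The promoter letters are shown because CLOCK, the REV-ERBs and NFIL3 act on each other's genes through short elements. RefSeq's table for GRCm38.p6 held windows from 250 bases before to 50 after a start for 8 of the 10 genes, 11 windows in all. Per2 and Bhlhe40 were not among them. Both strands were searched for the E-box CACGTG, the E-prime box CACGTT, the D-box TTATGTAA, the REV-ERB and ROR elements TAGGTCA and TGGGTCA and TGACG, the core of the cAMP response element, with capitals marking matches. The 6 windows that follow are shown for the genes whose new RNA is described most closely and for Cry1, which was called in no comparison.
Per1, upstream start: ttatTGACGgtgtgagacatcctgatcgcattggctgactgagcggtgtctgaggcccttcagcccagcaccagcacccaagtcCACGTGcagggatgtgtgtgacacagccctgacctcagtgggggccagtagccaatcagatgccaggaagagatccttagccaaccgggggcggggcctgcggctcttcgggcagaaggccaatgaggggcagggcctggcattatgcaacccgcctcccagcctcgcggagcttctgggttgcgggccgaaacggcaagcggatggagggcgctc
Per1, downstream start: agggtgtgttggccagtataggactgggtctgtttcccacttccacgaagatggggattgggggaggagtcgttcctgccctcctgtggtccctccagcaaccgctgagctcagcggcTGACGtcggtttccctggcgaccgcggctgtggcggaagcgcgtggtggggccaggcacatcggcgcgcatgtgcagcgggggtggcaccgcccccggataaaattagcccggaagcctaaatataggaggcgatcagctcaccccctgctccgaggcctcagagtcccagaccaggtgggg
Cry1: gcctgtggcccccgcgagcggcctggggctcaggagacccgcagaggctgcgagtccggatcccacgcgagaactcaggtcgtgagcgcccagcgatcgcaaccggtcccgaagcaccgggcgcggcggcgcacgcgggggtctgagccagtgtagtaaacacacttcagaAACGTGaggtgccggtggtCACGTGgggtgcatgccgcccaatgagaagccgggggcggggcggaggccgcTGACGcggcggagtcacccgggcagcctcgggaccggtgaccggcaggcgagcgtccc
Cry2: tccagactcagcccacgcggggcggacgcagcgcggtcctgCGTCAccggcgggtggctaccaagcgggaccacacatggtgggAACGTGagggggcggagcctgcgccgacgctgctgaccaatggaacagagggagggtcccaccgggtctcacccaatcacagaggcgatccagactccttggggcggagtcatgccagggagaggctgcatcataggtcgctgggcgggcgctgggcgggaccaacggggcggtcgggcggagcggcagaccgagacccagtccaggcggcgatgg
Nr1d1: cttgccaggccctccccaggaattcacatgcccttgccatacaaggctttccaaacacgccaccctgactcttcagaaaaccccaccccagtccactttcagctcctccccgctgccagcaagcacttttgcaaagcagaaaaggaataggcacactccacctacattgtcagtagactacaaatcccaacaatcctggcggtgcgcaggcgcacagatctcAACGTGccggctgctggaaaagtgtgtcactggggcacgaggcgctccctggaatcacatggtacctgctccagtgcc
Nfil3: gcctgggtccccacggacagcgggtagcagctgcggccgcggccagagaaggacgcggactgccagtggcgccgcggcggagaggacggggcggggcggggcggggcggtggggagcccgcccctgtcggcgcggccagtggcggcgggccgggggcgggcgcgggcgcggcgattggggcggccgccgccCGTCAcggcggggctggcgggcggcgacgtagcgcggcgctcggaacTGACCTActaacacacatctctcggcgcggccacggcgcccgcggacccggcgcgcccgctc

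The upstream Per1 window (chr11:69098699-69098998, plus strand) held CACGTG at 166 bases before the start and TGACG at 246 bases before it. The downstream one (chr11:69099902-69100201, plus strand) held TGACG at 132 bases before its start. In Cry1 (chr10:85185005-85185304, minus strand) an E-box lay 60, an E-prime box on the opposite strand 79 and TGACG 8 bases before the start. Cry2 (chr2:92434020-92434319, minus strand) and Nr1d1 (chr11:98775328-98775627, minus strand) each held an E-prime box on the opposite strand, at 166 and 28 bases before the start, and Cry2 also TGACG on the opposite strand at 209. Nfil3 (chr13:52980990-52981289, minus strand) held TAGGTCA at 12 and TGACG at 59 bases before the start, both on the opposite strand. The Per3 window, not printed, held TTATGTAA at 205 and at 158 bases before the start, and the 3 windows of Clock and the 1 of Nr1d2 held none of these letters. Of all 32851 windows in the table, 7.15% held CACGTG, 4.68% CACGTT, 0.938% TTATGTAA, 2.61% TAGGTCA, 3.98% TGGGTCA and 20.8% TGACG. A match is a run of letters and was not tested as a binding site.

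Some arrays stood apart. The 9 arrays of each 30 min group varied together in 3 sets of 3, replicates 1, 4 and 7, replicates 2, 5 and 8, and replicates 3, 6 and 9. Within a set the median absolute log2 difference between arrays was 0.1 to 0.16 for total and 0.14 to 0.26 for newly transcribed RNA, and between sets it was 0.26 to 0.46 and 0.17 to 0.52. The labels say nothing of these sets, so each 30 min result is also given with the arrays of a set averaged, as 3 against 3 values. Total RNA arrays at 60 min resembled each other least among the total RNA groups (r 0.878 to 0.964), and replicate 1 of newly transcribed RNA at 60 min stood apart from the other 2, with a Gapdh 3' minus 5' difference of 3.07 against at most 0.9 on every other array. All 11 fibroblast markers had a log2 level of 10.14 or more before actinomycin D, and the 8 measured markers of epithelial, leukocyte, endothelial and muscle cells were at 3.37 or less.

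Levels are log2 of the deposited intensities, and differences are log2 differences ± standard error from limma. Each fit held every probe set whose mean log2 over the fitted arrays reached 5, which is an intensity of 32. A gene was called where its p, adjusted over the whole fit by Benjamini-Hochberg, fell below 0.05 and the fold change reached 2. The values are relative to the average transcript on an array, so a higher level in newly transcribed RNA means a larger share of the new than of the total RNA. Levels below a log2 of 5 lie near the lower end of the scale, so the sizes of differences that reach below it are uncertain. Levels of different genes are read from different probes and are not set against each other. The plot of all 10 genes by array shows the 11 groups side by side.

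**Figure D1:**
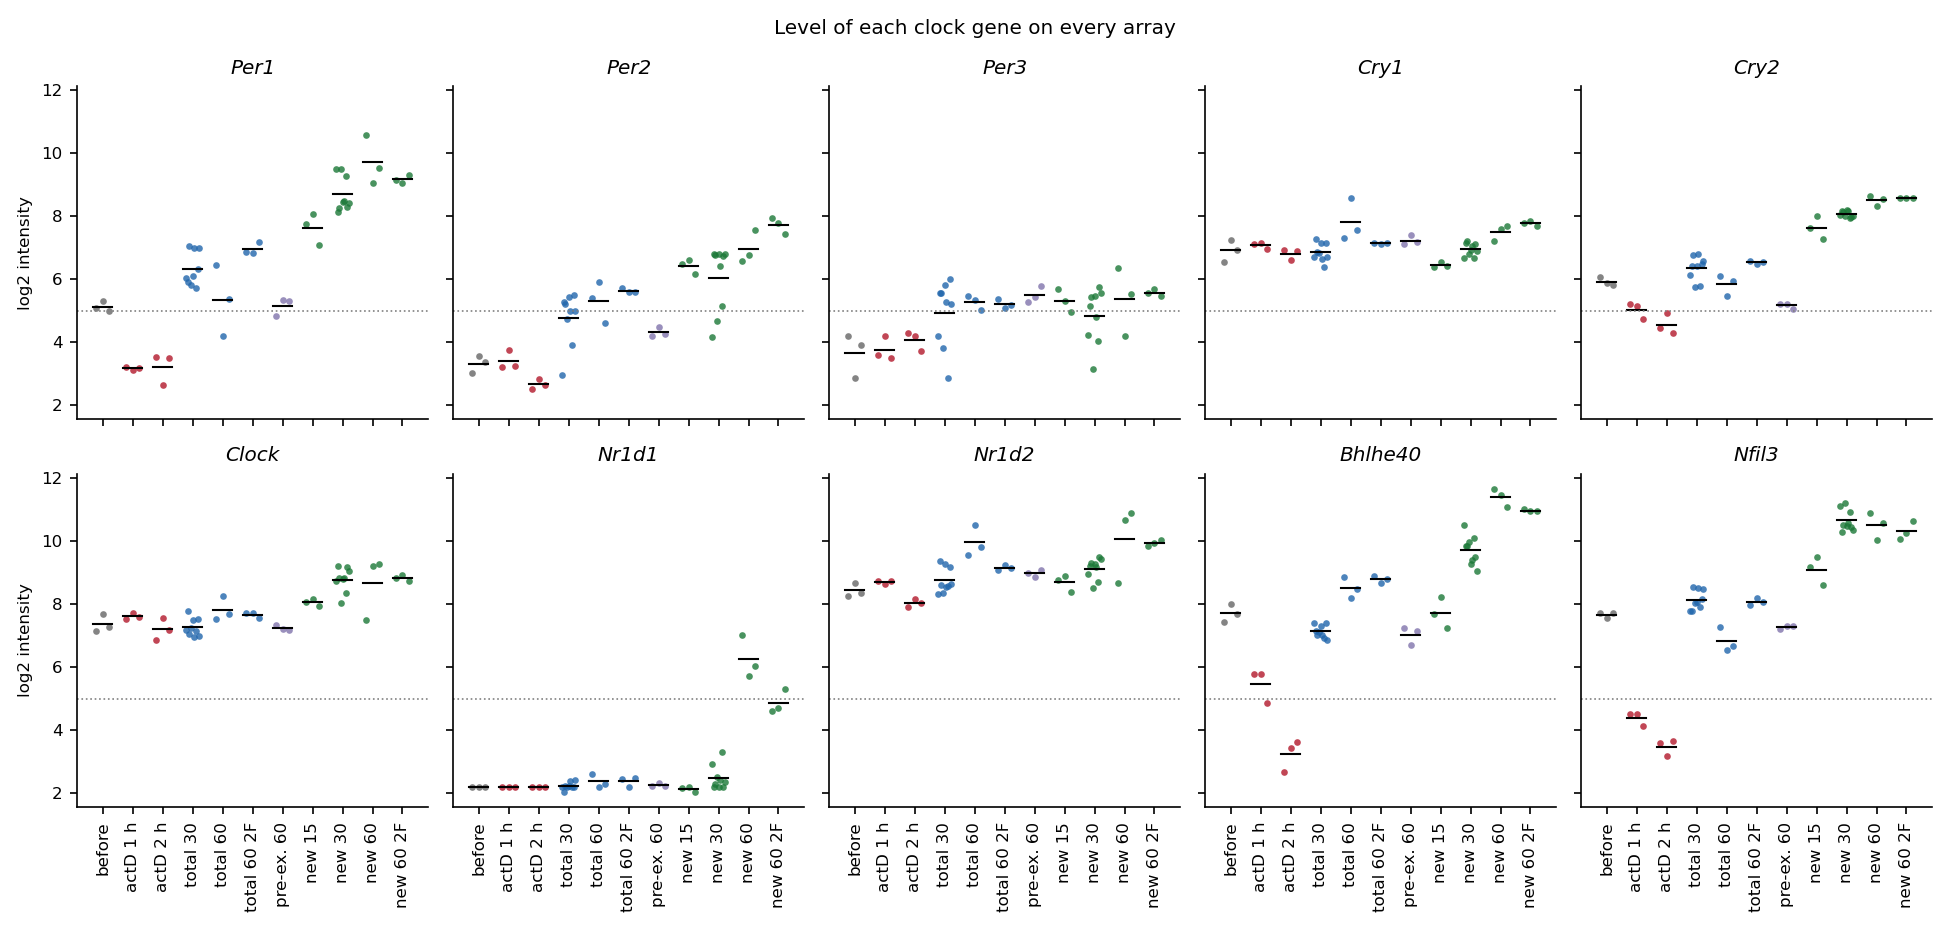
Log2 intensity of the headline probe set of each of the 10 genes (vertical axis) on every array, by group (horizontal axis; tc RNA is named total, nt RNA new, p RNA pre-ex.); points are arrays, black lines group means and the dotted line a log2 of 5. New RNA stood above total RNA for Per1, Cry2, Bhlhe40 and Nfil3 in each experiment that holds both, Cry1 stayed between 6.38 and 8.58 on every array, and Nr1d1 left the lower end of the scale only in new RNA.

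Among the repressors of the outer loops, Nfil3 and Bhlhe40 lost most of their RNA under actinomycin D. Before the drug the Nfil3 levels were 7.71, 7.55 and 7.72, after 1 h 4.50, 4.50 and 4.12, and after 2 h 3.59, 3.17 and 3.65. The 3 groups did not overlap. The difference from untreated cells was -3.29 ± 0.16 at 1 h (adjusted p = 9.1e-06) and -4.19 ± 0.16 at 2 h (adjusted p = 1.5e-07), 18.2-fold lower. Bhlhe40, the E-box repressor also known as DEC1, stood at 7.43, 8.00 and 7.68 before the drug, at 5.77, 5.77 and 4.87 after 1 h and at 2.68, 3.43 and 3.63 after 2 h. Again no 2 groups overlapped. It differed from untreated cells by -2.23 ± 0.30 at 1 h (adjusted p = 9.3e-04) and by -4.46 ± 0.30 at 2 h (adjusted p = 3.1e-06), 21.9-fold lower.

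From 1 h to 2 h Bhlhe40 fell by a further 2.22 ± 0.30 (adjusted p = 4.6e-04), about as much as in the first hour. Nfil3 fell by 0.90 ± 0.16 in that hour (adjusted p = 0.002), under the fold threshold, and by 1.03 without replicate 3 at 1 h, which passed it. Of its loss of 4.19 by 2 h, 3.29 lay in the first hour.

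Cry2, a cryptochrome repressor, had a smaller loss. Its levels were 6.09, 5.87 and 5.81 before the drug, 5.23, 5.14 and 4.75 after 1 h and 4.44, 4.92 and 4.31 after 2 h. Both treated groups lay below the untreated arrays. The difference was -0.88 ± 0.18 at 1 h (adjusted p = 0.006), under the fold threshold, and -1.36 ± 0.18 at 2 h (adjusted p = 3.4e-04), which was called.

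Per1, a PER repressor, was too low on average to be tested in this experiment. Its arrays stood at 5.10, 5.30 and 4.98 before the drug, 3.22, 3.11 and 3.18 after 1 h, and 3.54, 2.64 and 3.50 after 2 h. All 6 treated arrays were below the 3 untreated ones, and both treated groups were near the lower end of the scale. In a fit with no filter on low levels the adjusted p was 0.0023 at 1 h and 0.0014 at 2 h. Per2, Per3 and Nr1d1 had means of 3.32, 3.66 and 2.18 before the drug and were not tested. Per2 lay at 2.52, 2.83 and 2.63 after 2 h, below its untreated arrays of 3.01, 3.56 and 3.38, with an adjusted p of 0.047 with no filter.

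The remaining 3 genes tested differed less. Clock had 7.16, 7.69 and 7.26 before the drug, 7.53, 7.72 and 7.59 after 1 h and 6.87, 7.57 and 7.17 after 2 h, with overlapping groups and a difference of -0.17 (95% interval -0.59 to 0.26) at 2 h. For Cry1, the other cryptochrome, the 2 h difference was -0.11 with an interval of -0.49 to 0.28. Both signs turn when the arrays are centred on their medians, to 0.17 for Clock and 0.23 for Cry1. Nr1d2, which encodes REV-ERB beta, read 8.26, 8.68 and 8.36 before the drug, 8.74, 8.64 and 8.73 after 1 h and 7.92, 8.15 and 8.03 after 2 h. It was lower at 2 h by 0.40 ± 0.13 than before the drug on the log2 scale (adjusted p = 0.036) and by 0.67 ± 0.13 than at 1 h (adjusted p = 0.0031), both under the fold threshold.

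Of the 6 genes tested, 2 were called lower at 1 h, against 3.97% of all genes tested, and 3 at 2 h, against 10.9%. Bhlhe40 was the 1 gene called lower from 1 h to 2 h, against 7.55%. None was called higher (0.699% of all genes at 1 h, 0.294% at 2 h and 2.42% from 1 h to 2 h). The median of the 6 was -0.88 at 2 h and that of all genes 0.062; centring the arrays on their medians raised all 2 h differences, moving the all-gene median by 0.33. Bhlhe40, Cry2 and Nfil3 reached the filter only through their untreated arrays, where they were highest. Nfil3 drops below the filter when any 1 untreated array is left out. Bhlhe40 is then the only call at 1 h, and Bhlhe40 and Cry2 are the 2 calls at 2 h.

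**Figure D2:**
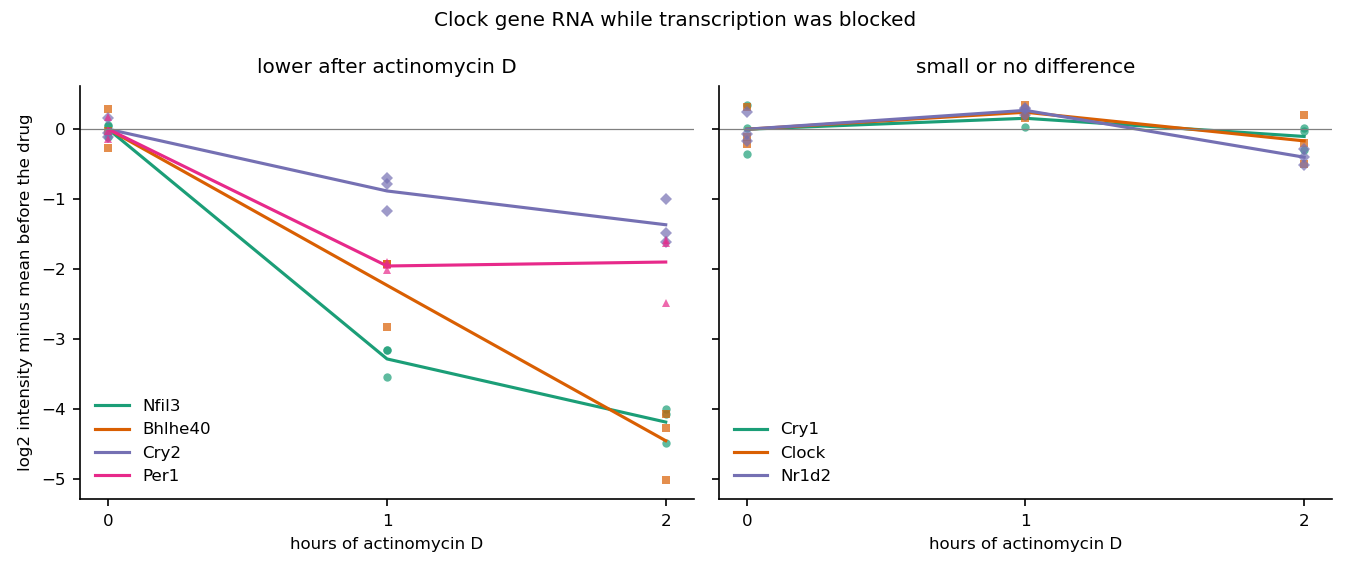
Log2 intensity minus the mean before the drug (vertical axis) against hours of actinomycin D (horizontal axis); points are arrays (3 per time) and lines join group means. On the left Nfil3 and Bhlhe40 lost about 4 log2 units by 2 h, Cry2 lost 1.36 and Per1, which was too low to be tested, reached its low level by 1 h; on the right Cry1, Clock and Nr1d2 had 2 h means of -0.11, -0.17 and -0.40.

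Read as simple decay with transcription stopped at once, these losses correspond to half-lives at 2 h of 26.9 min for Bhlhe40 (95% interval 23.4 to 31.7), 28.7 min for Nfil3 (26.4 to 31.3) and 88 min for Cry2 (67.7 to 126). From the 1 h arrays the values were 26.9, 18.2 and 68.1 min in the same order. All arrays of Bhlhe40 and Cry2 at 2 h and of Nfil3 at both times were below a log2 of 5, so these half-lives are uncertain and those from the 2 times are not set against each other. For Nr1d2 the 2 h value was 301 min (176 to 1050), and for Clock and Cry1 the intervals had lower ends of 203 and 243 min and no upper end. All these half-lives are relative to the average transcript on an array. Centring on array medians moved the all-gene 2 h median by 0.33, a shift that the intervals do not include. It weighs most on the small losses of Nr1d2, Clock and Cry1.

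In newly transcribed RNA at 30 min, 6 of the 8 genes tested were called higher than in total RNA, against 14.4% of all genes tested, and none lower (29.1% of all genes). The filter takes the mean over both fractions. Per2, with a mean of 4.78 in total RNA, reached it only through its new RNA, so its place among the 8 depended on the fraction where it was higher. The median of the 8 was 1.61 and that of all genes -0.33. With the arrays of a set averaged 5 genes were called higher, against 14% of all genes, and none lower (28.3%). Centring on array medians lowered every difference, moving the all-gene median by -0.3.

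Bhlhe40 and Nfil3 had the largest differences of the 8. Bhlhe40 had 6.87 to 7.40 (median 7.13) in total RNA and 9.05 to 10.51 (median 9.85) in newly transcribed RNA, with no overlap. The difference was 2.59 ± 0.16 (adjusted p = 1.2e-11), and 2.59 ± 0.25 over sets (adjusted p = 1.7e-04). Nfil3 had 7.78 to 8.55 (median 8.08) in total and 10.28 to 11.22 (median 10.52) in newly transcribed RNA, again apart. Its difference was 2.52 ± 0.15 (adjusted p = 6.9e-12), and ± 0.27 over sets (adjusted p = 2.4e-04). The replicates 1, 4 and 7 held the 3 highest new RNA arrays of Nfil3.

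Among the PER and CRY repressors, Per1 and Cry2 were called. Per1 read 5.73 to 7.07 (median 6.10) in total and 8.15 to 9.52 (median 8.47) in newly transcribed RNA. The groups were apart, and the difference was 2.38 ± 0.24 (adjusted p = 2e-08), with ± 0.41 over sets (adjusted p = 0.0017). The sets ran in different orders in the 2 fractions: replicates 1, 4 and 7 averaged 9.43 in new and 5.86 in total RNA, and replicates 3, 6 and 9 averaged 8.39 and 7.02. Cry2 lay at 5.76 to 6.82 (median 6.43) in total and 7.94 to 8.19 (median 8.03) in newly transcribed RNA. It was higher by 1.72 ± 0.13 (adjusted p = 3.3e-10), with ± 0.25 over sets (adjusted p = 7.9e-04).

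The Per2 result rested on how the arrays were counted. Its new RNA levels were 4.17, 4.67 and 5.15 in replicates 1, 4 and 7 and 6.43 to 6.82 in the other 6, and its total RNA levels were 2.95, 4.74 and 3.91 against 4.99 to 5.49. The groups overlapped, since the 1, 4 and 7 set was low in both fractions. The difference of 1.26 ± 0.42 was called over 9 arrays (adjusted p = 0.0092) and not over 3 sets (± 0.63, adjusted p = 0.12), nor after centring on medians (0.96). Per3, the remaining PER gene, showed the same low set (3.15 to 4.24 in new and 2.88 to 4.19 in total RNA) and had means of 4.85 and 4.93, below the filter. Cry1 did not differ detectably, at 6.95 ± 0.20 (SD, n = 9) in new and 6.86 ± 0.29 in total RNA, a difference of 0.087 with a 95% interval of -0.17 to 0.34.

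Clock, the activator, was called higher in new RNA. Its headline probe set read 6.95 to 7.78 (median 7.19) in total and 8.04 to 9.22 (median 8.82) in newly transcribed RNA. The groups were apart, and the difference was 1.51 ± 0.15 (adjusted p = 2.1e-08), with ± 0.26 over sets (adjusted p = 0.0019). Nr1d2 differed by 0.36 ± 0.17 (adjusted p = 0.056, and 0.32 over sets), with 8.33 to 9.36 in total and 8.50 to 9.50 in newly transcribed RNA. Nr1d1, which encodes REV-ERB alpha, stood at 2.18 to 3.29 in newly transcribed and 2.04 to 2.42 in total RNA, so no enrichment could be measured.

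At 60 min 5 of 9 genes tested were called higher in newly transcribed RNA, against 15.6% of all genes, and none lower (24.6%). Per2, with means of 5.32 in total and 4.32 in pre-existing RNA, reached the filter of this fit only through its new RNA. The median of the 9 was 1.66 and that of all genes -0.21. Per1 stood at 6.45, 4.20 and 5.38 in total and at 10.58, 9.05 and 9.55 in newly transcribed RNA. Both fractions spread widely and still lay apart, with a difference of 4.39 ± 0.55 (adjusted p = 2.8e-04). Nfil3 had 7.28, 6.53 and 6.66 against 10.90, 10.03 and 10.58, a difference of 3.68 ± 0.30 (adjusted p = 6.6e-05). For Bhlhe40 the arrays read 8.87, 8.18 and 8.47 against 11.66, 11.47 and 11.10, higher by 2.90 ± 0.28 (adjusted p = 1.2e-04).

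Cry2 was at 6.10, 5.48 and 5.95 in total and 8.66, 8.34 and 8.55 in newly transcribed RNA, a difference of 2.68 ± 0.24 (adjusted p = 9e-05). Per2 was at 5.40, 5.92 and 4.62 against 6.58, 6.76 and 7.57, a difference of 1.66 ± 0.37 (adjusted p = 0.0056). In all 5 genes, which were called on these same arrays, the lowest new RNA array was above the highest total RNA array. The share of all genes whose fractions lay apart was not counted. Clock was not called (0.84 ± 0.45, adjusted p = 0.15), with new RNA arrays of 7.50, 9.22 and 9.27; the low array is replicate 1, the one that stood apart, and without it the difference was 1.42 (adjusted p = 0.0017), which was called, while without any other array it was not (0.53 at the lowest, with an adjusted p of 0.40). Nr1d2 showed the same low array, with 8.67, 10.68 and 10.90 in newly transcribed RNA against 9.57, 10.52 and 9.80 in total RNA. Its difference was 0.12 ± 0.53. The differences of Per3 (0.086 ± 0.47) and Cry1 (-0.32 ± 0.33) did not pass either, and the signs of these 2 and of Nr1d2 turned when single arrays were left out.

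The 2F experiment had the closest replicates, and 6 of 9 genes were called higher, against 18.8% of all genes, with none lower (22.5%). The median of the 9 was 2.05 and that of all genes -0.044. Per1 read 6.87, 6.84 and 7.18 in total and 9.15, 9.07 and 9.31 in newly transcribed RNA, a difference of 2.22 ± 0.12 (adjusted p = 3.1e-07). For Nfil3 the difference was 2.24 ± 0.15 (adjusted p = 1e-06), with 7.96, 8.19 and 8.08 against 10.06, 10.25 and 10.65. Bhlhe40 went from 8.89, 8.67 and 8.81 to 11.02, 10.95 and 10.95, higher by 2.18 ± 0.09 (adjusted p = 1.2e-07). In each of these 3 genes, called on the same arrays, the fractions did not overlap. How many of all genes lay apart was not counted here either.

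Cry2 in the 2F experiment was higher by 2.05 ± 0.08 (adjusted p = 1e-07), at 8.59 on each of the 3 new RNA arrays. Per2 was at 5.72, 5.61 and 5.60 in total and 7.95, 7.78 and 7.44 in newly transcribed RNA, higher by 2.08 ± 0.13 (adjusted p = 7.9e-07). Clock was higher by 1.16 ± 0.09 (adjusted p = 3e-06), and by 0.98 after centring on medians, which is under the fold threshold. Nr1d2 (0.79 ± 0.10), Cry1 (0.64 ± 0.085) and Per3 (0.35 ± 0.10) had adjusted p of 4.9e-05, 9.5e-05 and 0.011 and stayed under the fold threshold.

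**Figure D3:**
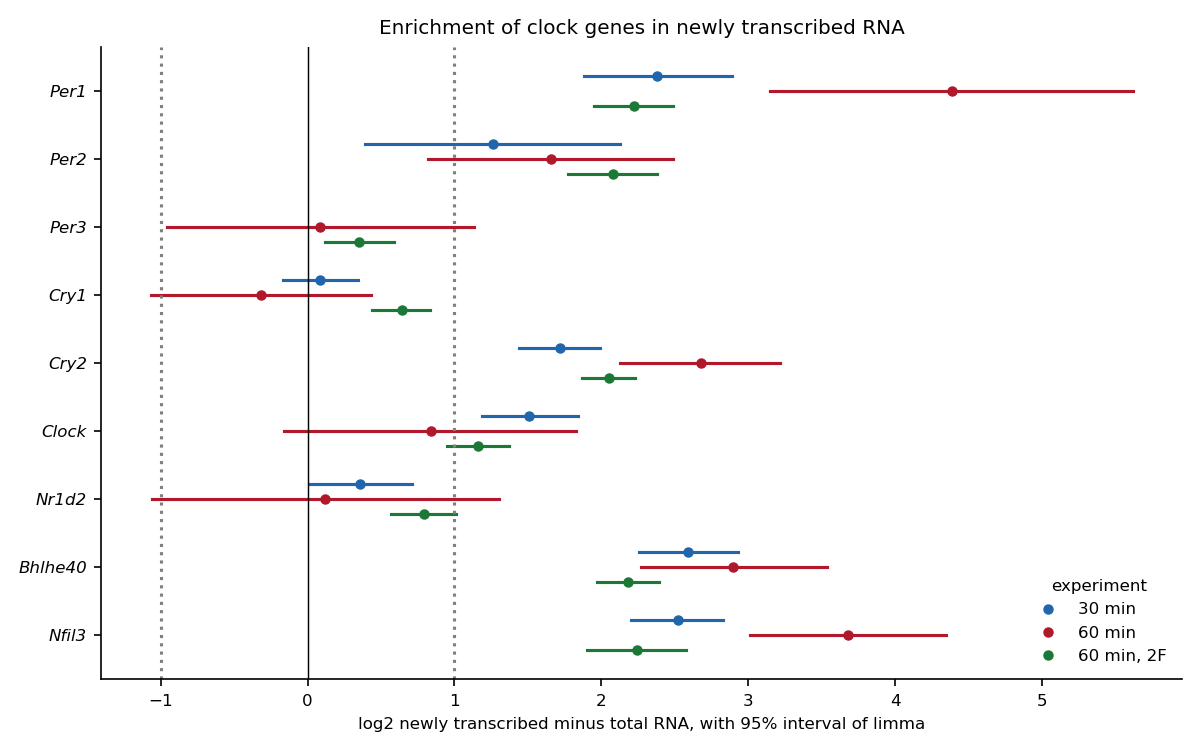
Log2 difference of newly transcribed minus total RNA (horizontal axis) for each gene tested (vertical axis) in the 3 experiments that hold both fractions; points are limma estimates over the arrays, bars 95% intervals and dotted lines a fold of 2. The points of Per1, Per2, Cry2, Bhlhe40 and Nfil3 lay right of the fold line in all 3 experiments, those of Cry1 and Nr1d2 left of it in all 3, and Per1 and Nfil3 lay farthest right at 60 min; the 30 min bars count 9 arrays a group and are narrower than those over sets.

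Whether enrichment differed between experiments was tested with interaction terms. From 30 min to 60 min it was higher by 2.00 ± 0.58 for Per1 (adjusted p = 0.017) and by 1.16 ± 0.33 for Nfil3 (adjusted p = 0.015), 2 of 8 genes tested against 10% of all genes, and none was lower (5.3%). Over sets of arrays the adjusted p values were 0.24 and 0.23, and limma then called 0 probe sets of any gene, although 2801 had an unadjusted p below 0.05. Leaving out replicate 1 of newly transcribed RNA at 60 min gave 1.58 for Per1 and 0.97 for Nfil3, and leaving out replicate 2 of total RNA gave 1.43 and 1.02, none of them called. Cry2 had 0.96 ± 0.27 (adjusted p = 0.015, over sets 0.24), under the fold threshold, and passed it at 1.05, 1.09 and 1.01 without new RNA replicate 2 or total RNA replicates 1 or 3. Without total RNA replicate 2 it was 0.78 (adjusted p = 0.077). The headline probe set of Clock differed by -0.68 ± 0.41 (adjusted p = 0.23), but its probe sets 1439314_at and 1435775_at were called lower, by 1.94 ± 0.32 (adjusted p = 7.5e-04) and 1.43 ± 0.29 (adjusted p = 0.0021), as was the mean of its 4 probe sets (-1.21 ± 0.26, adjusted p = 0.0031). Over sets both probe sets had an adjusted p of 0.12. Nr1d1 was too low to be tested in these terms. With no filter its enrichment was higher than at 30 min by 3.64 at 60 min (adjusted p = 7.1e-07) and by 2.22 in 2F (adjusted p = 1.5e-05). Its total RNA was near the lower end of the scale, so these sizes are uncertain.

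Between 2F and 30 min none of the 9 genes was called, against 3.1% of all genes higher and 0.86% lower, nor over sets, against 2.29% and 0.506%. Between 2F and the other 60 min experiment none was called either (0.0122% higher and 0% lower), with limma calling 4 probe sets in all and 2128 at an unadjusted p below 0.05. Per1 had -2.17 ± 0.70 (adjusted p = 0.25) and Nfil3 -1.44 ± 0.39 (adjusted p = 0.20) there; without replicate 1 of total RNA at 60 min they were -2.72 (adjusted p = 0.045) and -1.67 (adjusted p = 0.049). A single fit of all 45 arrays also called both, with adjusted p of 0.034 and 0.021.

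Pre-existing RNA, made before the label, was lower than total RNA for 1 of 9 genes tested, against 2.81% of all genes lower and 1.87% higher. That gene was Bhlhe40, at 7.23, 6.69 and 7.15 in pre-existing and 8.87, 8.18 and 8.47 in total RNA, a difference of -1.48 ± 0.28 (adjusted p = 0.0083). The arrays did not overlap. For Nfil3 the difference was 0.45 with a 95% interval of -0.22 to 1.12, and for Per1 it was -0.18 with an interval of -1.41 to 1.05. Cry2 was at 5.23, 5.22 and 5.06, below all 3 total RNA arrays, with a difference of -0.67 ± 0.24 that did not pass the test (adjusted p = 0.12). Per2 (-1.0 ± 0.37, adjusted p = 0.12) and Nr1d2 (-0.99 ± 0.53, adjusted p = 0.25) did not pass it either. A half-life from the label was not defined, since its scale comes from regressing p/tc on nt/tc, which had an r of -0.0881 over 9047 probe sets, and the value for Nfil3 ran from 94.1 to 36 min between 2 filters.

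Over labelling time the genes took different courses in newly transcribed RNA. Bhlhe40 was higher at each longer time, with 7.68, 8.24 and 7.24 at 15 min, 9.05 to 10.51 at 30 min and 11.66, 11.47 and 11.10 at 60 min. No group overlapped the next. It was lower at 15 min than at 30 min by 2.01 ± 0.26 (adjusted p = 3.1e-05, over sets 0.0013), higher at 60 min than at 30 min by 1.68 ± 0.26 (adjusted p = 1e-04, over sets 0.0023) and higher in 2F by 1.25 ± 0.26 (adjusted p = 0.002, over sets 0.016). With replicates 1 to 3 alone at 30 min the 2F difference was 0.90 and not called.

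Nfil3 was called at 15 min alone. Its arrays read 9.19, 9.51 and 8.60 at 15 min and 10.28 to 11.22 at 30 min, lower at 15 min by 1.56 ± 0.24 (adjusted p = 1.2e-04, over sets 0.0049). At 60 min it differed from 30 min by -0.16 (95% interval -0.66 to 0.35), a sign that turns with centring (0.13), and in 2F by -0.34 (-0.85 to 0.16).

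Per1 read 7.77, 8.07 and 7.09 at 15 min and 8.15 to 9.52 at 30 min. It was lower at 15 min by 1.07 ± 0.34 (adjusted p = 0.018), but over sets the adjusted p was 0.075, and without replicate 3 at 15 min the difference was -0.79 (adjusted p = 0.15). At 60 min it was higher than at 30 min by 1.02 ± 0.34 (adjusted p = 0.025), while the adjusted p was 0.094 over sets and 0.065 with the replicate number as a block. Without replicate 1 at 60 min the difference was 0.59. Neither Per1 step therefore held under every way of counting the arrays.

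Per2 was at 6.43, 6.04, 6.97 and 7.72 on average at 15 min, 30 min, 60 min and in 2F, and its 2F level was above that at 30 min by 1.68 ± 0.51 (adjusted p = 0.021, over sets 0.041). That call was lost when any 1 of the 3 2F arrays was left out (adjusted p 0.055 to 0.091). Cry1 differed from its 30 min level by -0.49 ± 0.15 at 15 min, 0.55 ± 0.15 at 60 min and 0.83 ± 0.15 in 2F, and Cry2 by -0.43, 0.45 and 0.52, all 6 with adjusted p below 0.05 and under the fold threshold; over sets only Cry1 in 2F passed (adjusted p = 0.018). Nr1d2 was above its 30 min level by 0.96 ± 0.33 at 60 min (adjusted p = 0.031, over sets 0.16), and by 1.67 without replicate 1 (adjusted p = 5.3e-05), which was called; without replicates 2 or 3 it was 0.66 and 0.55, the latter with an adjusted p of 0.23.

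Nr1d1 exceeded a level of 3.29 on the new RNA arrays at 60 min and in 2F and on no other array. Its new RNA arrays read 2.17, 2.18 and 2.03 at 15 min, 2.18 to 3.29 at 30 min, 7.02, 5.72 and 6.04 at 60 min and 4.59, 4.69 and 5.30 in 2F. On every array of total and pre-existing RNA, in all 3 experiments and under actinomycin D, it lay between 2.04 and 2.61. The gene was too low for the filter in each fit, and with no filter the adjusted p was 4.4e-07 for 60 min against 30 min and 3.9e-05 for 2F against 30 min. The 3 highest new RNA arrays at 30 min were replicates 1, 7 and 4, at 2.92, 3.29 and 2.50.

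Counted together, 3 of 9 genes were called lower at 15 min than at 30 min, against 9.14% of all genes, 2 were called higher at 60 min, against 6.17%, and 2 in 2F, against 4.03%. In the other direction the counts were 0, with 1.79%, 5.52% and 1.37% of all genes. Over sets the counts were 2, 1 and 2, against 7.86%, 5.4% and 3.2%, and again 0 in the other direction, with 1.63%, 4.04% and 1.02% of all genes. The comparisons share the 30 min arrays. Centring on medians moved the all-gene median by 0.29 for 60 min against 30 min.

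**Figure D4:**
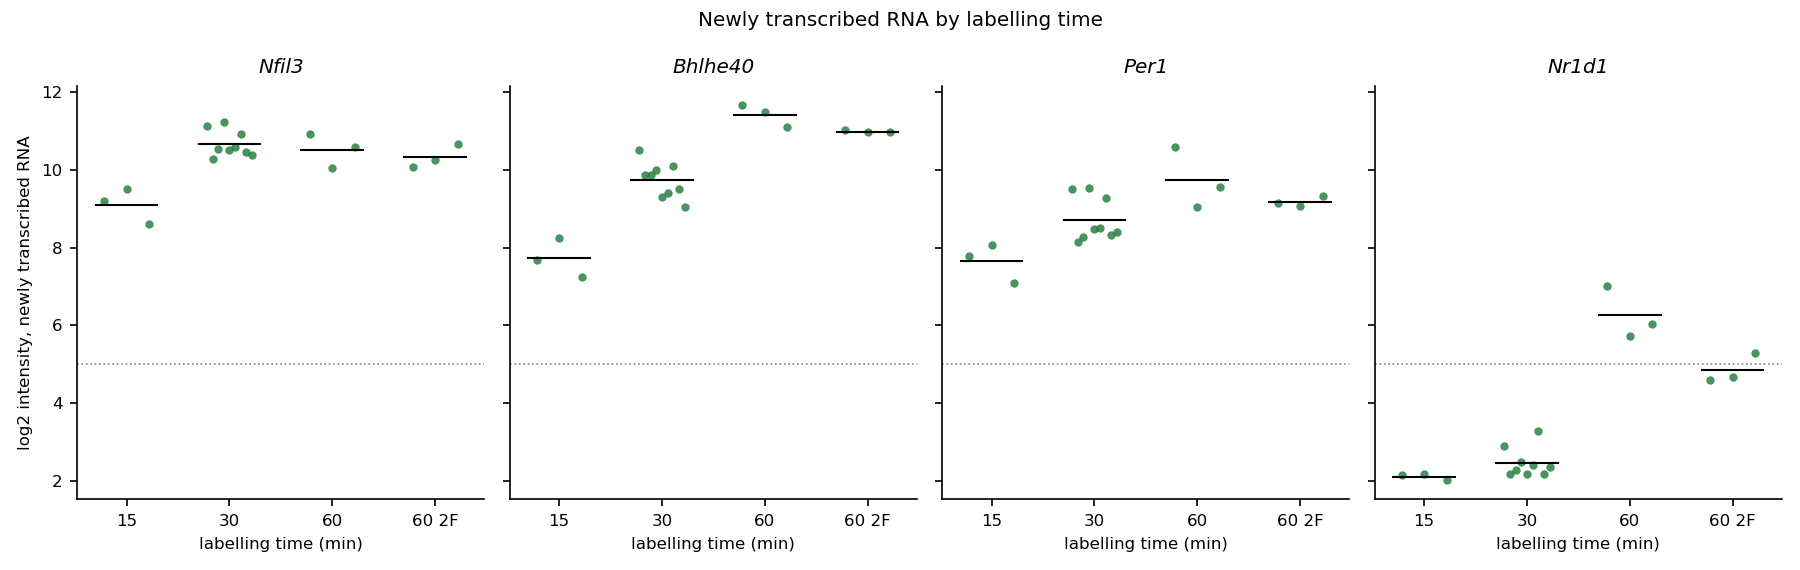
Log2 intensity in newly transcribed RNA (vertical axis) against labelling time in minutes, with the 2F experiment apart (horizontal axis), for Nfil3, Bhlhe40, Per1 and Nr1d1; points are arrays (9 at 30 min, otherwise 3), lines group means and the dotted line a log2 of 5. Nfil3 did not differ detectably between 30 min and 60 min, Bhlhe40 was higher at 60 min than on any 30 min array, and Nr1d1 exceeded 3.29 only after 60 min of labelling.

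Total RNA of labelled cells was set against untreated cells of the actinomycin D experiment. At 30 min none of 7 genes tested was called (0.526% of all genes higher, 0.108% lower; over sets 0.228% and 0%). Per1 was at 5.73 to 7.07 against 5.10, 5.30 and 4.98, apart from the untreated arrays, with a difference of 1.20 ± 0.37 that did not pass (adjusted p = 0.12, over sets 0.47). At 60 min Nr1d2 was the 1 gene called higher, against 2.58% of all genes, and none was lower (4.05%). It rose from 8.26, 8.68 and 8.36 to 9.57, 10.52 and 9.80, by 1.53 ± 0.28 (adjusted p = 0.0022). Its 2F arrays, at 9.07, 9.24 and 9.14, were also above all untreated ones, with a difference of 0.72 ± 0.28 that did not pass (adjusted p = 0.23).

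Also at 60 min Bhlhe40 was higher by 0.80 ± 0.19 (adjusted p = 0.010), Cry1 higher by 0.90 ± 0.28 (adjusted p = 0.036) and Nfil3 lower by 0.84 ± 0.23 (adjusted p = 0.020), all under the fold threshold. Leaving out total RNA replicate 1 took Nfil3 to -1.07 and Cry1 to 1.15, and leaving out replicate 3 or untreated replicate 2 took Cry1 to 1.02 and 1.07, all called. Leaving out total RNA replicate 2, the highest Cry1 array, took Cry1 to 0.52 (adjusted p = 0.21) and Nfil3 to -0.69 (adjusted p = 0.098). For Bhlhe40 the lowest value was 0.62, and the adjusted p reached 0.055 without untreated replicate 1. Nfil3 levels were thus below the untreated ones at 60 min (7.28, 6.53 and 6.66) and above them in 2F (7.96, 8.19 and 8.08), where the difference of 0.42 did not pass (adjusted p = 0.45).

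In 2F, 2 of 7 genes were called higher in total RNA, against 1.32% of all genes, and none lower (0.239%). Per1 was at 6.87, 6.84 and 7.18, higher by 1.84 ± 0.45 (adjusted p = 0.034), a call that was lost whichever array was left out (adjusted p 0.085 to 0.14). Bhlhe40 was at 8.89, 8.67 and 8.81, higher by 1.09 ± 0.19 (adjusted p = 0.0033), and by 0.95 without untreated replicate 1 and 0.94 after centring, both under the fold threshold. Per2 was too low to be tested, with a mean of 3.32 before the drug, 4.78 in total RNA at 30 min, 5.32 at 60 min and 5.64 in 2F. With no filter its adjusted p was 0.031 at 60 min and 0.029 in 2F. Experiment and time cannot be told apart in these comparisons, which share the untreated arrays.

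The order of the group means differed from gene to gene. Bhlhe40 and Nfil3 had 6 of 10 steps between neighbouring groups at which the arrays did not overlap. Cry2 had 3 and Per1, Per2, Cry1, Nr1d1 and Nr1d2 had 2 each. Such steps were not counted over all genes, so these counts are a description and do not set the genes apart. Bhlhe40 ran from 11.41 at 60 min through 2F, new RNA at 30 min and total RNA in 2F down to 5.47 and 3.25 under actinomycin D. For Nfil3 the top was shared by new RNA at 30 min, 60 min and in 2F, at 10.66, 10.50 and 10.32, which overlapped, and new RNA at 15 min followed at 9.10. Neighbouring groups of Clock and Per3 overlapped at every step, although Clock was called in 2 comparisons. For Cry1 the order did not follow the fractions, with total RNA at 60 min highest at 7.82 and new RNA at 15 min lowest at 6.46.

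The 4 probe sets of Clock did not run alike over labelling time. The headline probe set, 1418659_at, had new RNA means of 8.06, 8.78, 8.66 and 8.83 at 15 min, 30 min, 60 min and in 2F. In contrast 1418660_at had 8.70, 7.98, 7.36 and 7.13 and 1439314_at had 8.43, 7.68, 6.02 and 6.31, both highest at 15 min. All 4 were called higher in new than in total RNA at 30 min, by 1.51, 1.70, 2.62 and 1.41 for 1418659_at, 1418660_at, 1439314_at and 1435775_at. At 15 min against 30 min, 1418660_at was higher by 0.72 ± 0.19 (adjusted p = 0.0055, over sets 0.045) and 1439314_at by 0.74 ± 0.25 (adjusted p = 0.027, over sets 0.12), while 1435775_at was lower by 0.91 ± 0.18 (adjusted p = 9.4e-04). The headline probe set was lower by 0.73 ± 0.30 (adjusted p = 0.064).

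From 30 min to 60 min 2 of the Clock probe sets were called lower in new RNA. 1439314_at fell by 1.66 ± 0.25 (adjusted p = 8.8e-05, over sets 0.0048) and 1435775_at by 1.06 ± 0.18 (adjusted p = 2.7e-04, over sets 0.010). In 2F against 30 min 1439314_at was called lower as well, by 1.37 ± 0.25 (adjusted p = 7.8e-04, over sets 0.019), and 1418660_at was lower by 0.85 ± 0.19 (adjusted p = 0.0031, over sets 0.039), under the fold threshold. The headline probe set differed by -0.12 at 60 min (95% interval -0.75 to 0.51) and by 0.052 in 2F (-0.58 to 0.68). In enrichment 1439314_at was also called lower in 2F than at 30 min, by 1.04 ± 0.25 (adjusted p = 0.0092, over sets 0.046).

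In pre-existing RNA 1439314_at stood at 3.04, 3.07 and 2.81, below all of its total RNA arrays, while the headline probe set stood at 7.24 on average, a difference of -0.58 ± 0.45 from total RNA that did not pass (adjusted p = 0.42). Where the probe sets lie on the transcripts is not given in the sources used here. The other probe sets of Per2, Per3 and Nr1d2 had means of 4.04 or less over all arrays and were tested in none of the comparisons of fractions or of actinomycin D at 2 h. Picked after their values were seen, 2 of them are given here. The Per3 probe set 1442243_at stood at 5.90, 5.46 and 6.25 in new RNA at 15 min and at 4.51 on average at 30 min. Its difference was 1.35, with an adjusted p of 0.012 from limma with no filter. The headline probe set of Per3 differed in the same direction, by 0.47 (95% interval -0.54 to 1.47), and was not called. The Nr1d2 probe set 1416959_at stood at 4.44, 4.32 and 4.71 in total and 2.47, 3.03 and 2.48 in new RNA of 2F, lower in new RNA (adjusted p = 5.1e-04 with no filter), where the headline probe set was higher by 0.79. Levels below 5 are near the lower end of the scale.

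**Figure D5:**
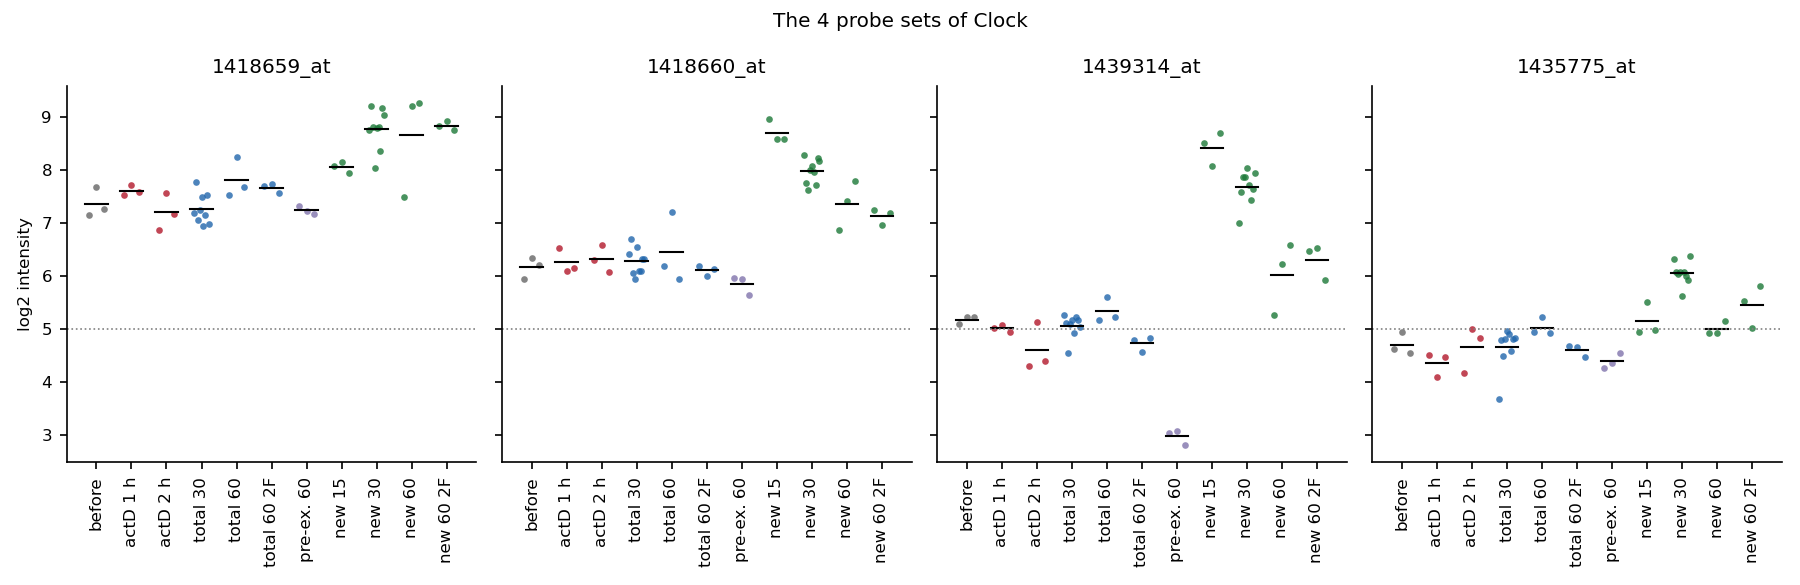
Log2 intensity (vertical axis) of the 4 Clock probe sets by group (horizontal axis; tc RNA is named total, nt RNA new, p RNA pre-ex.); points are arrays, black lines group means and the dotted line a log2 of 5. 1418660_at and 1439314_at were highest in new RNA at 15 min, at 8.70 and 8.43, whereas 1418659_at averaged 8.06 there and 8.78 at 30 min, and 1439314_at was lowest in pre-existing RNA.

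Of a list of 37 other clock pathway genes 30 were measured and 23 to 25 tested per comparison. After 2 h of actinomycin D 3 of 23 were called lower, against 10.9% of all genes tested, and none higher (0.294%), with a list median of -0.13. Sirt1, an NAD-dependent deacetylase that acts on clock proteins, fell by 2.03 ± 0.36 (adjusted p = 0.0021) and Usp2, a deubiquitinase of clock proteins, by 1.17 ± 0.23 (adjusted p = 0.0034). Arntl, the partner of Clock, was the other. At 1 h 1 of 23 was called lower, against 3.97% of all genes, and 1 higher, against 0.699%. Usp2 was the lower one (-1.09 ± 0.23). Crem, named after its value was seen, was the higher one (1.5 ± 0.27), with a mean log2 of 4.57 over all arrays. Sirt1 and Arntl were not called at 1 h (-0.12 ± 0.36 and 0.14 ± 0.2). They were the 2 called lower from 1 h to 2 h (-1.91 ± 0.36 and -1.15 ± 0.2), against 7.55% of all genes, with none higher (2.42%).

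New RNA at 30 min was called higher for 6 and lower for 4 of 25 list genes, against 14.4% and 29.1% of all genes, with a list median of 0.25. The same 10 genes were called over sets, against 14% and 28.3%. Srf, the serum response factor, was higher by 2.34 ± 0.13 (adjusted p = 3.6e-12), Sirt1 by 1.72 ± 0.12, Usp2 by 1.20 ± 0.17, Gsk3b, a kinase of clock proteins, by 1.13 ± 0.18 and Creb1, a factor of cAMP response elements, by 1.06 ± 0.19. Rora, an activator at ROR elements, was also higher. Nono, an RNA-binding partner of PER proteins, was lower by 1.23 ± 0.08, and Hdac3, the deacetylase recruited by REV-ERBs, by 1.07 ± 0.10; Dbp and Btrc were lower too. At 60 min 5 of 25 were called higher and 4 lower, against 15.6% and 24.6% of all genes, with a list median of 0.59. Usp2 had 2.06 ± 0.30, Gsk3b 1.91 ± 0.47 and Srf 1.83 ± 0.27. The 4 lower genes were Dbp (-2.47 ± 0.34), Nono (-1.13 ± 0.32) and, named after their values were seen, Nampt (-1.45 ± 0.47) and Tipin (-1.05 ± 0.29). In 2F 9 were called higher and 2 lower, the latter Dbp and Hdac3, against 18.8% and 22.5% of all genes, with a list median of 0.49. Srf was the 1 list gene called higher in total RNA against untreated cells both at 60 min (1.53 ± 0.21, adjusted p = 1.9e-04) and in 2F (1.08 ± 0.21, adjusted p = 0.0066). At 60 min 1 of 24 list genes was called higher and 3 lower, against 2.58% and 4.05% of all genes. The 3 lower genes were Hdac3 (-1.32 ± 0.33, adjusted p = 0.014) and, named after their values were seen, Sfpq (-1.4 ± 0.25, adjusted p = 0.0018) and Hlf (-1.2 ± 0.34, adjusted p = 0.023). In 2F 1 was called higher and 0 lower, against 1.32% and 0.239%, and Hdac3 was not called (-0.12 ± 0.33).

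The genes most like each clock gene were found by Pearson correlation of the 11 group means, over 5429 genes whose mean log2 reached 7, given as a description. Bhlhe40 was most like Klf10 (r = 0.988), Foxc2 (0.986) and Pprc1 (0.984), and Nfil3 like Nuak2 (0.994), Zfp623 (0.988) and Myc (0.988). These 2 clock genes had 379 and 341 genes over an r of 0.9. Clock, with 280 such genes, was most like Ing3 (0.981), Rbm18 (0.98) and Sowahc (0.979). Nr1d2 had 33, led by Ndufaf4 (0.955), Eif2ak4 (0.944) and Timm29 (0.94), and Cry1 only 15, led by Gpatch4 (0.946), Rpf2 (0.938) and Ppig (0.935). The points share arrays and the split between fractions, so high values are common.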

How the data were processed

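Newly transcribed, total and pre-existing RNA of NIH-3T3 cells was measured on 45 arrays in 11 groups, set by the sample titles. The authors deposited linear intensities from GCRMA; this follows the submitters' processing notes, which give no version. Log2 of all 31451 rows was used, less 61 control probe sets. The number of arrays limits the precision. No array's values were identical to another's. Detection calls were not used here.

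Differences were fitted by group alone in 16 comparisons with limma (version 3.58.1, R 4.3.3), a fit that was tested on simulated data. The simulated arrays varied independently, so that test does not cover the 30 min arrays, which vary together in sets. All 10 genes are named. Of the clock pathway list, written from general knowledge, genes called at 2 h of actinomycin D or in nt against tc at 30 min are named, with values in the main for those whose mean log2 reached 7; and for each clock gene at that level the 3 genes most alike. The genes, lists and tests were chosen with earlier results of these data known. Averaging the 30 min arrays in sets was added after seeing the data.

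The replicate number was tried as a block because, in some comparisons, same-numbered arrays deviated together from their group means. The correlations were 0.12 to 0.17 for 1 h and 0.21 to 0.53 for 2 h of actinomycin D, and in the 60 min experiment 0.14 to 0.29 for nt and 0.21 to 0.38 for p against tc. They were 0.2 to 0.33 for nt at 60 min against 30 min and 0.13 to 0.31 for tc at 60 min against untreated cells. The labels do not say what the numbers mark.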

Additional observations from a re-analysis of the deposited data

Results flagged for a closer look

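The enrichment of Per1 in newly transcribed RNA was larger at 60 min than at 30 min by 2.00 on the log2 scale (interaction term of limma, SE 0.58, adjusted p = 0.017). It was the first of 2 results in which the difference between experiments itself passed the test. Only genes that reached the filter were tested, and Nr1d1 did not reach it. Without single arrays the Per1 difference ran from 1.43 to 2.56, and over sets of 30 min arrays the adjusted p was 0.24. The enrichment of Nfil3 was larger by 1.16 (SE 0.33, adjusted p = 0.015; over sets 0.23), and it too was not called without new RNA replicate 1 or total RNA replicate 2 at 60 min. Mean total RNA levels of both genes were lower at 60 min than at 30 min, at 5.34 against 6.33 for Per1 and 6.82 against 8.14 for Nfil3. That step was not tested. The Per1 arrays overlapped (4.20 to 6.45 at 60 min and 5.73 to 7.07 at 30 min), and those of Nfil3 did not. At 60 min the Nfil3 mean in total RNA was below those of both its parts, new (10.50) and pre-existing RNA (7.27). The difference of pre-existing from total RNA, 0.45, did not pass the test of limma (adjusted p = 0.35). For Per1 the mean in pre-existing RNA was 5.16, below that in total RNA. The part of labelling time, 4sU dose and experiment in the differences between 60 min and 30 min cannot be told apart.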

How the results depend on the processing

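Calls of single genes that changed with 1 array or with the averaging in sets stand beside the results. Of the other settings, a filter at a mean log2 of 7 left 0 genes called under actinomycin D at 1 h, at 2 h and from 1 h to 2 h, 2 for nt against tc at 60 min, 1 for 2F against 30 min and 1 for total RNA in 2F, because fewer genes were tested. The adjusted p alone gave 3 calls from 1 h to 2 h of the drug, 5 at 15 min and 5 at 60 min against 30 min, 4 in 2F against 30 min and 4 for total RNA at 60 min. With no filter 2 genes were called in total RNA at 60 min and 1, Nr1d1, for enrichment in 2F against 30 min. A fit of all 45 arrays called 2 in total RNA at 60 min and 2 for enrichment in 2F against 60 min. For nt at 60 min against 30 min, quantile normalization gave 1 call, centring on medians 4, 30 min replicates 1 to 3 alone 1 and sets 1; for 2F against 30 min replicates 1 to 3 gave 0, and for enrichment at 60 min against 30 min replicates 1 to 3 and sets gave 0. Centring left 1 call in total RNA in 2F. The half-life of Nfil3 was 18.2 min from 1 h of the drug, where all its arrays were below a log2 of 5. At the lower filter the label gave a value of 36 min, although a half-life from the label was not defined.

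With the replicate number as a block, 1 gene was called for nt at 60 min against 30 min, 0 for 2F against 30 min and 1 for total RNA in 2F; Per1 at 15 min against 30 min was also lost (adjusted p = 0.070), and beyond these comparisons the block changed no call of the 10 genes. For 15 min and 2F against 30 min and for total RNA in 2F the numbers do not pair the arrays. Signs that turned belonged to genes that were not called. Under quantile normalization these were Cry1 at 2 h of the drug (0.03) and Clock in 2F against 30 min (-0.009). Under centring they were Cry1 (0.23) and Clock (0.17) at 2 h of the drug, Cry1 from 1 h to 2 h (0.047), Cry1 in nt against tc at 30 min (-0.21), Clock (0.17) and Nfil3 (0.13) at 60 min against 30 min, and the Nr1d2 enrichment at 60 min against 30 min (0.0044). With the mean of probe sets, Clock turned in 2F against 30 min (-0.69, adjusted p = 0.0071) and in total RNA in 2F (-0.068). With the block or with replicates 1 to 3, Clock in 2F against 30 min (-0.096) and Cry1 in total RNA at 30 min (0.036) turned.

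Leaving out 1 array or set at a time, the number of genes called ran from 1 to 2 under the drug at 1 h and from 1 h to 2 h and from 2 to 3 at 2 h, was 1 for 2F against 30 min, ran from 1 to 3 for total RNA at 60 min, 0 to 1 for total RNA in 2F, 0 to 3 for enrichment at 60 min against 30 min and 0 to 2 in 2F against 60 min. Signs also turned for Cry1 at 1 h (-0.024 to 0.33) and 2 h of the drug (-0.29 to 0.064), Cry1 in nt against tc at 30 min (-0.025 to 0.2), and in nt against tc at 60 min for Per3 (-0.42 to 0.67), Nr1d2 (-0.29 to 0.82) and Cry1 (-0.57 to 0.061). The same held for Per1 in p against tc (-0.75 to 0.37), Clock (-0.43 to 0.46) and Nfil3 (-0.36 to 0.078) at 60 min against 30 min, Clock (-0.21 to 0.055) and Cry1 (-0.24 to 0.11) in total RNA at 30 min, and Per1 (-0.34 to 0.79) and Cry2 (-0.21 to 0.1) at 60 min. For enrichment they were Nr1d2 at 60 min against 30 min (-0.65 to 0.47) and, in 2F against 60 min, Nr1d2 (-0.036 to 1.08), Clock (-0.26 to 0.63) and Per3 (-0.31 to 0.77). The cause of these shifts was not tested.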
